A study of Mus musculus with 9 samples.

Results

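NONCODE is a database that gathers long noncoding transcripts, and each of its mouse entries has an identifier that starts with NONMMUT. The 28773 probes of the array outside the controls whose name starts with NONMMUT were taken as the NONCODE transcripts, which is 29.4% of the 97836 probes measured. Their numbers ran from 4 to 74950, and every identifier had 1 probe. Of these, 16815 (58.4%) were well above background, by the scanner software's own test, on at least 3 of 9 arrays over the 3 groups and are described here. They were set beside the 39027 probes whose names start with A_, which belong to Agilent's catalogue and come without gene names in the files used here, and of which 29015 (74.3%) met the same limit. The tables used here pair no NONMMUT identifier with a gene, a position or a sequence, so each transcript is named by its identifier, with no role and no coordinates.

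Long noncoding RNAs are transcripts with no long open reading frame that are mostly made, spliced and capped like messenger RNAs. As a class they are known for lower levels than messenger RNAs and for being made in fewer tissues. Some act in the nucleus on chromatin or on neighbouring genes, others act in the cytoplasm, and many have no known function. In liver, some take part in the control of lipid and glucose metabolism, which a high fat diet disturbs and which metformin, a glucose-lowering drug, alters.

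Livers came from male C57BL/6J mice, an inbred wild-type strain, all taken at an age of 20 weeks. Control mice ate normal chow for 17 weeks from an age of 3 weeks, and the labels record no gavage for them. The high fat diet group ate, for the same 17 weeks, a diet with 45% of its energy from fat, and was given saline by gavage for the final 5 of them. Mice of the metformin group had that diet too, with metformin at 3 mg/kg/day in place of saline over those 5 weeks. Each of the 3 groups had 3 pools, each pool held liver of 4 mice, and each pool was measured on 1 single-colour array, so 36 mice stand behind 9 values per probe. The control group lacked the diet and has no gavage on record, and no group received metformin on chow. A pool averages its mice, so the spread between pools is not the spread between mice. In whole liver, fewer cells of a type and less RNA per cell cannot be told apart. The labelled tissue was not checked against marker genes, since 0 of 50 cell type markers had a named probe.

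The arrays lay on 3 slides. All 3 control arrays were on slide 1 together with high fat diet replicate 1, slide 2 held the other high fat diet pools with metformin replicates 1 and 2, and slide 3 held metformin replicate 3. No control array shared a slide with a metformin array, so for that comparison the slide and the group cannot be told apart except through the high fat diet arrays. Control replicate 1 stood apart. In control replicate 1, 144 NONCODE probes were more than 2 log2 units above the median of the other 8 arrays, against 3 to 14 such probes on each of the other arrays. The same excess was seen over all collections (600 probes against 19 to 80) and in 340 catalogue probes, so it was not particular to the NONCODE probes.

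NONCODE transcripts were above background less often than catalogue probes on every array. The share of NONCODE probes above background was 53.9%, 53.4% and 60.3% on the control arrays, 57.0%, 51.6% and 52.2% on the high fat diet arrays, and 58.7%, 48.1% and 53.5% on the metformin arrays. The mean was 54.3% ± 3.78 (SD, n = 9), and that of catalogue probes was 71.5% ± 2.51. Catalogue probes exceeded NONCODE probes by 15.4 to 19.1 percentage points on each array, with a mean of 17.2 ± 1.34 (SD, n = 9). The groups overlapped. High fat diet arrays were 2.25 points below control arrays (two-sided exact permutation test, p = 0.5, n = 3 a group), metformin arrays 0.191 points below high fat diet arrays (exact permutation p = 1.0), and metformin arrays 2.44 points below control arrays (exact permutation p = 0.5). With 3 arrays against 3 such a test cannot go below 0.1.

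Detection was mostly all or none. Of the 28773 NONCODE probes, 12630 (43.9%) were above background on all 9 arrays and 9594 (33.3%) on none, against 64.1% and 20.1% of catalogue probes. Just inside and outside the limit, 694 NONCODE probes were above background on 3 arrays and 812 on 2. Among the probes that met the limit, 4185 NONCODE probes (24.9%) but 4014 catalogue probes (13.8%) missed at least 1 array. All catalogue probes had 2 spots per array, whereas 8239 NONCODE probes (28.6%) had a single spot. The limit was met by 57.1% of single-spot and 59.0% of 2-spot NONCODE probes, so both kinds lay below the catalogue probes. Counted spot by spot, 52.9% of spots of single-spot NONCODE probes, 51.8% of spots of 2-spot NONCODE probes and 69.5% of catalogue spots were above background.

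**Figure D1:**
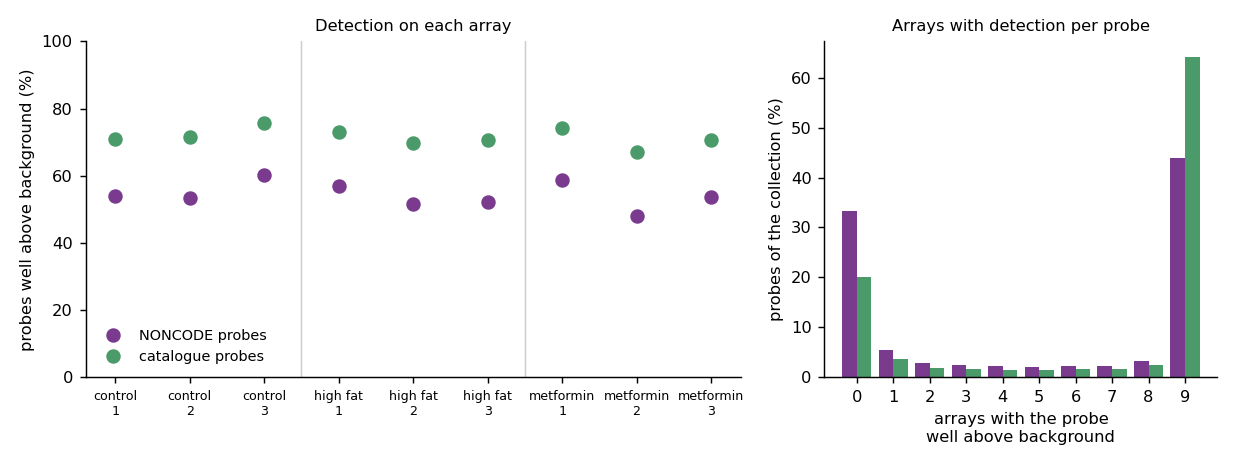
Left, percent of NONCODE and of catalogue probes well above background on each of the 9 arrays, by group. Right, percent of probes of each collection by the number of arrays on which they were above background. NONCODE probes lie between 48.1% and 60.3% on every array, below the catalogue probes of the same array.

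Most of the NONCODE transcripts that were measured lay near the lower end of the signal range. Levels here are log2 signal relative to the 75th percentile of all probes on the array, so a level of 0 is that percentile. Of the 16815 probes, 23 lacked a value on some array, and the level is given for the other 16792. Their median level was -1.24, with quartiles at -2.40 and 0.22. For 29011 catalogue probes it was 0.28, with quartiles at -1.54 and 2.31. In all, 28.0% of the NONCODE and 54.0% of the catalogue probes had a mean above the percentile. Among probes above background on all 9 arrays, the medians were -0.59 and 0.79. Signal also depends on each probe's own binding, so these distributions do not rank single transcripts by abundance.

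The median NONCODE level was nearly the same on all arrays. It was -1.11, -1.28 and -1.25 in the controls, -1.23, -1.23 and -1.27 in the high fat diet pools and -1.19, -1.22 and -1.21 in the metformin pools. The metformin arrays lay above the high fat diet arrays without overlap, by 0.035 log2 units (exact permutation p = 0.1, the smallest possible with 3 against 3). The catalogue median was 0.030 lower in the metformin arrays, with overlap (exact permutation p = 0.2). The gap between the 2 collections was 1.48 ± 0.010 (SD, n = 3) in the metformin arrays and 1.54 ± 0.034 in the high fat diet arrays, which did not overlap either (exact permutation p = 0.1). Control replicate 1 had the highest NONCODE median and the smallest gap to the catalogue, 1.32.

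The spread between pools of 1 group was slightly larger for NONCODE than for catalogue probes over all levels. The median within-group SD was 0.249 log2 units for NONCODE and 0.229 for catalogue probes, and 0.217 against 0.212 among probes above background on all 9 arrays. At equal level the order was mixed. In 13 bins of mean level, each 1 log2 unit wide, NONCODE probes had the larger median SD in 5 and the smaller in 8, with differences between -0.025 and 0.0083. With normexp background correction the order over all levels turned, to 0.144 for NONCODE and 0.161 for catalogue probes.

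The order at equal level changed when control replicate 1 was left out, an alternative chosen after seeing the data. Without it, NONCODE probes had the larger SD in 13 of 13 bins, by 0.0042 to 0.026. The overall medians without it were 0.225 and 0.173. Within the control group, the median SD of NONCODE probes was 0.235 with replicate 1 and 0.140 without it, and that of catalogue probes was 0.253 and 0.107. In the high fat diet group the medians were 0.215 for NONCODE and 0.181 for catalogue probes, and in the metformin group 0.190 and 0.139. So over all levels the NONCODE probes had the larger spread in these latter groups and, without replicate 1, in the controls. They had the smaller in the controls with replicate 1. These group medians were not taken at equal level, and the NONCODE probes were the dimmer ones. Part of the spread lay within the array. Among probes with 2 spots, the median SD between the spots of 1 array was 0.151 for NONCODE and 0.0997 for catalogue probes, which leaves an error of 0.107 and 0.0705 in the mean of both spots. The variance from spots amounted to a median of 21.3% of the variance between pools for NONCODE and 11.6% for catalogue probes.

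**Figure D2:**
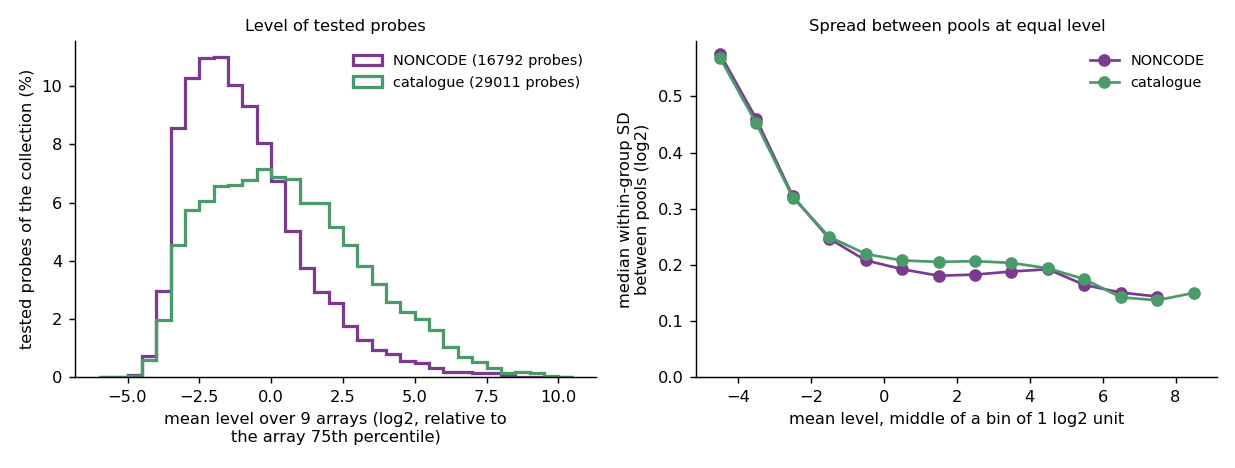
Left, distribution of mean level over 9 arrays (log2 relative to the array's 75th percentile) for NONCODE and catalogue probes that met the detection limit. Right, median within-group SD between pools in bins of level, for both collections. NONCODE levels have their median at -1.24 against 0.28, and the curves of the SD lie close together, within 0.025 log2 units in each bin.

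In the NONCODE probes, the median correlation between arrays was slightly higher within groups than between groups. Correlations across the 16792 probes, which are not independent, ran from 0.966 to 0.983 within groups and from 0.949 to 0.979 between groups, with medians of 0.975 and 0.968. This did not hold for each pair of groups. High fat diet arrays correlated with metformin arrays at 0.970 to 0.979 and among themselves at 0.974 to 0.975. All control arrays lay on slide 1, so within the controls group and slide cannot be told apart. A principal component analysis of the NONCODE probes put 31.3% of their variance on its first component. On it, the controls had loadings of 0.63, 0.38 and 0.30, and the other arrays lay between -0.35 and -0.02. High fat diet replicate 1, which shared a slide with the controls, had the -0.02 and was thus nearest to them.

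Over all 3 groups at once, limma's F test found a difference for 23 NONCODE probes (0.137%) at an adjusted p of at most 0.05, beside 0.124% of all probes. The diet was then compared with chow. In limma's fit over all 62036 tested probes, 9 of 16792 NONCODE probes differed between the high fat diet and the control group at a Benjamini-Hochberg adjusted p of at most 0.05, which here is what is meant by a change. There were 28 among all probes (0.0451%) and 12 among catalogue probes. Of the 9, 2 rose (0.0129% of all probes did) and 7 fell (0.0322% of all probes). This split was 11 higher and 10 lower with normexp, and 4 and 4 among probes above background on all 9 arrays. At an unadjusted p under 0.05 limma found 2193 NONCODE probes, where 12.1% of all probes passed. Both collections moved little as a whole, with a median change of -0.012 for NONCODE and -0.010 for catalogue probes. The groups did not overlap for 2871 NONCODE probes (17.1%), against 15.4% of all probes tested, a share near this background. In 1369 of them the diet group was higher and in 1502 lower, against 7.27% and 8.13% of all probes.

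NONMMUT061275 was at -2.47, -3.12 and -2.66 in the controls and at -1.32, -0.95 and -0.99 in the high fat diet pools. Every high fat diet pool was above every control, and the rise was 1.67 ± 0.19 (SE, n = 3 a group, limma adjusted p = 0.0294). NONMMUT013860 was at -0.47, -1.11 and -0.89 in the controls and at 1.55, 0.72 and 1.00 in the high fat diet pools. It rose by 1.92 ± 0.24 (SE, limma adjusted p = 0.0431), and the metformin pools, at 0.48, 0.10 and 0.38, lay between both groups. The next smallest p among probes that were higher belonged to NONMMUT012531 (1.16, limma adjusted p = 0.0603), NONMMUT027059 (1.23, limma adjusted p = 0.068) and NONMMUT037724 (1.54, limma adjusted p = 0.0684). These missed the threshold.

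The transcripts with the widest separation fell. NONMMUT015705 was at -0.51, -1.29 and -0.25 in the controls and at -4.66, -3.68 and -3.57 in the high fat diet pools, none of which was well above background. The fall was therefore at least 5.32-fold, measured down to a floor of signal set for each array (limma adjusted p = 0.0224). NONMMUT015765 was at -0.46, -2.06 and -0.99 in the controls and at -4.55, -4.63 and -4.58 in the high fat diet pools, also not well above background, a fall of at least 3.81-fold (limma adjusted p = 0.0338). In the metformin pools NONMMUT015705 was at -2.62, -2.84 and -2.47 and NONMMUT015765 at -2.33, -2.70 and -3.56, with 2 of 3 pools above background for each. Both stood between the other groups there, at least 1.37-fold and at least 1.17-fold above the high fat diet pools, but these differences missed the threshold (limma adjusted p = 0.514 and 0.502). The levels of these transcripts had a Pearson correlation of 0.93 over the 9 arrays, given as a description of a pair chosen after its values were seen.

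NONMMUT024516 and NONMMUT013553 fell within the measured range in all groups. The first was at 0.85, 0.73 and 0.96 in the controls, at -0.81, -0.61 and -0.80 in the high fat diet pools and at 0.24, 0.07 and -0.35 in the metformin pools. All 3 groups lay apart, and the fall from control to high fat diet was 1.59 ± 0.17 (SE, limma adjusted p = 0.029). NONMMUT013553 was at -0.26, -0.55 and -0.68 in the controls and at -2.03, -2.10 and -1.55 in the high fat diet pools, with a fall of 1.40 ± 0.18 (SE, limma adjusted p = 0.0472). The remaining 3 were dim. NONMMUT018086 (at least 1.28-fold lower, limma adjusted p = 0.0188), NONMMUT033236 (at least 1.23-fold lower, limma adjusted p = 0.0391) and NONMMUT058227 (at least 1.55-fold lower, limma adjusted p = 0.0472) were above background in all 3 controls and in no high fat diet pool. NONMMUT033236 and NONMMUT058227 were above background in no metformin pool either, so they met the detection limit through the controls alone and were tested because the controls were high.

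These 9 calls depended on single arrays and on the slide. The NONCODE count was 2 without control replicate 1 or without control replicate 2, 1 without control replicate 3, 94 without high fat diet replicate 1, 5 without metformin replicate 2, and 0 without high fat diet replicate 2 or 3 (1737 and 1767 NONCODE probes at an unadjusted limma p under 0.05). Sizes depended on the background correction: with normexp the change of NONMMUT061275 was 0.78, that of NONMMUT013553 -0.81 and that of NONMMUT015705 -1.44, and the changes of NONMMUT018086, NONMMUT033236 and NONMMUT058227 missed the threshold (limma adjusted p = 0.0692, 0.248 and 0.161). With the slide as a fixed block the count was 0 (870 at an unadjusted limma p under 0.05), although all 9 kept their direction there.

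Apart from the test, 86 NONCODE probes (0.512% of those tested) were above background on all 3 controls and on no high fat diet array. The reverse held for 18 (0.107%). The corresponding catalogue counts were 100 (0.345%) and 14 (0.0483%). For such counts, here and below, the share over all probes was not computed. The largest bounds among those lower on the diet were those of NONMMUT015705 and NONMMUT015765 above, and of NONMMUT061535, at -0.02, -1.90 and -2.62 in the controls (at least 2.99-fold, limma adjusted p = 0.198, led by control replicate 1). Among those higher on the diet, NONMMUT033105 (at least 1.89-fold), NONMMUT063288 (at least 1.62-fold) and NONMMUT038071 (at least 1.52-fold) had the largest bounds, and none passed the test (limma adjusted p = 0.298, 0.177 and 0.145).

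**Figure D3:**
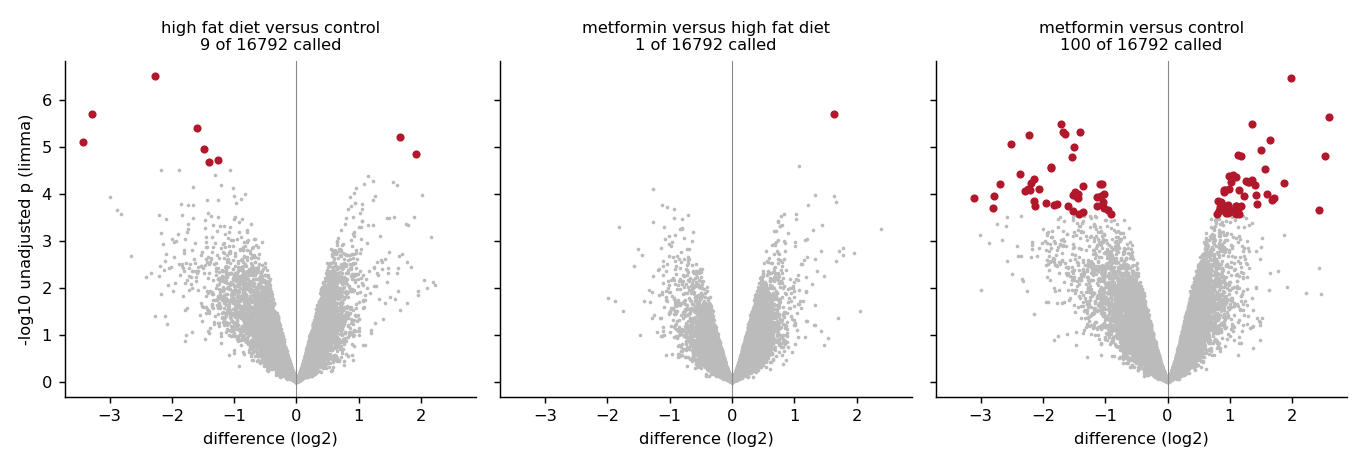
Change (log2) against the unadjusted limma p (shown as -log10) of the 16792 NONCODE probes in the 3 comparisons, with probes past the adjusted threshold marked. There are 9 in high fat diet versus control, 1 in metformin versus high fat diet and 100 in metformin versus control.

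Metformin was compared with saline on the same diet. A single NONCODE transcript changed, against 4 of all probes (0.00645%, and 0.00484% for those that rose) and 1 catalogue probe. At an unadjusted p under 0.05 limma found 1089 NONCODE probes, where 6.64% of all probes passed. NONMMUT057558 was at 3.12, 3.03 and 3.27 in the metformin pools and at 1.31, 1.38 and 1.82 in the high fat diet pools. It rose by 1.64 ± 0.16 (SE, n = 3 a group, limma adjusted p = 0.0374), which is 3.11-fold. In the controls it was at 1.26, 1.08 and 1.12, just below the high fat diet pools, so the 3 metformin pools were the high ones. The probe has a single spot and was above background on every array.

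NONMMUT047819 and NONMMUT068801 had profiles close to that of NONMMUT057558. NONMMUT047819 was at 8.90, 8.90 and 9.21 in the metformin pools, at 6.96, 7.09 and 8.02 in the high fat diet pools and at 6.64, 6.27 and 6.33 in the controls. Its difference from the high fat diet group, 1.64 ± 0.26 (SE), missed the threshold (limma adjusted p = 0.349), and high fat diet replicate 3 was the pool nearest to the metformin group. NONMMUT068801 was at 2.77, 2.83 and 3.00 in the metformin pools and at 1.73, 1.68 and 1.98 in the high fat diet pools, a difference of 1.07 ± 0.14 (SE, limma adjusted p = 0.171). Over the 9 arrays, Pearson correlations between the levels of the 3 transcripts were 0.96 to 0.99. This describes transcripts chosen for their differences, measured in the same pools.

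The other transcripts with the smallest p were not called. NONMMUT011877 was above background in the metformin pools alone, at -3.33, -2.74 and -3.61, near or below the floor used for bounds (limma adjusted p = 0.349). It met the detection limit through these pools alone and was tested because they were high. In the other direction, NONMMUT056481 (-1.27, limma adjusted p = 0.29) and NONMMUT027059 (-1.04, limma adjusted p = 0.396) had lower means in the metformin pools, where 1 of 3 pools was above background for each. NONMMUT030331 was above background in no metformin pool (at least 1.21-fold lower, limma adjusted p = 0.396). NONMMUT027059 was at -2.41, -2.44 and -2.13 in the high fat diet pools, at -3.63, -3.59 and -3.45 in the controls and at -3.03, -3.65 and -3.43 in the metformin pools, so the high fat diet pools were the high ones.

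The call of NONMMUT057558 held in some fits. It remained without high fat diet replicate 3, where NONMMUT047819 passed as well (1.98, limma adjusted p = 0.0398), and was lost when any one of the other 8 arrays was left out. Without control replicate 1 the only NONCODE call was NONMMUT016642, which was above background in no metformin pool (at least 1.18-fold lower, limma adjusted p = 0.0124). No NONCODE probe was called without any one of the other 7 arrays, where 783 to 1155 had an unadjusted limma p under 0.05. With the slide as a fixed block the change of NONMMUT057558 was 1.48 (limma adjusted p = 0.636), and 0 NONCODE probes were called (782 at an unadjusted limma p under 0.05).

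More NONCODE probes were a little higher than lower with metformin. The groups did not overlap for 2217 (13.2%), against 16.2% of all probes tested, and 1446 of these were higher and 771 lower, against 8.04% and 8.15% of all probes. Among the catalogue probes, 2206 were higher and 3442 lower. Thus 65.2% of such NONCODE probes and 39.1% of such catalogue probes were higher, and 49.7% over all probes tested. Probes outside both collections also were more often higher than lower, so the lean was not particular to NONCODE. The size was small, with a median change of 0.030 for NONCODE and -0.016 for catalogue probes. The NONCODE median stayed between 0.012 and 0.048 when any 1 array was left out and was 0.045 with the slide as a block, whereas the catalogue median ran from -0.029 to 0.0030 and was 0.0018 with the slide as a block. With normexp background correction, 79.6% of the NONCODE probes whose groups did not overlap were higher, and with quantile normalization 64.4%.

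Changes from background to signal were rare between these groups, and bounds give the least size they can have. Above background in all metformin and no high fat diet pools were 21 NONCODE probes (0.125% of those tested), and the reverse held for 13 (0.0774%). For catalogue probes the counts were 13 (0.0448%) and 22 (0.0758%). The NONCODE gains were led by NONMMUT046035 (at least 2.19-fold), NONMMUT051434 and NONMMUT057595 (both at least 1.36-fold). The losses were led by NONMMUT055598 (at least 1.70-fold), NONMMUT045652 (at least 1.65-fold) and NONMMUT074275 (at least 1.59-fold). None of these 6 passed the test, with limma adjusted p between 0.467 and 0.808.

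Metformin-treated mice on the high fat diet were then compared with chow controls, which differ in diet, drug and, as far as recorded, gavage. Of the NONCODE probes, 100 changed, beside 339 of all probes (0.546%) and 143 catalogue probes. There were 54 that rose (0.237% of all probes did) and 46 that fell (0.309% of all probes). Catalogue calls were 42 higher and 101 lower. Calls outside both collections split much as the NONCODE calls did, so this split was not particular to NONCODE. The split of the NONCODE calls was 92 higher and 56 lower with normexp, 97 and 72 among probes above background on all 9 arrays, 44 and 129 with only the 2 groups compared, and 63 and 138 without high fat diet replicate 1. The groups did not overlap for 4363 NONCODE probes (26.0%), against 24.9% of all probes tested, again near the background. The metformin pools were higher for 2312 and lower for 2051 of them, each against 12.5% of all probes. At an unadjusted p under 0.05 limma found 3353 NONCODE probes, where 19.1% of all probes passed. This comparison shares its controls with that of diet and chow, and the values of both stand side by side below.

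The transcripts that rose were mostly above background on some array of both groups. Of the 54, 33 were above background on all 9 arrays and 41 on at least 1 control array. These 41 rose by 0.80 to 2.59 log2 units (median 1.02), 21 of them at least 2-fold. For some, such as NONMMUT031949, only 1 control array was above background, so these sizes rest partly on values below background. The other 13 were above background on no control array, and their rises have a lower bound only: it was 2-fold or more for 3, reached at most 2.81-fold, and gave no fold for 1. Those that fell were more often lost from detection. Of the 46, 10 were above background on all 9 arrays and 21 on at least 1 metformin array. The changes of these 21 had a median of -1.51 and a size of 0.90 to 2.80, and 19 fell at least 2-fold. Here too some, such as NONMMUT018086, had only 1 metformin array above background. The other 25 were above background on no metformin array. Their bound was 2-fold or more for 6, reached at most 4.10-fold, and gave no fold for 3. Of the 46, 9 met the detection limit through the control arrays alone, and 2 of the 54 through the metformin arrays alone, so that such probes were tested because that group was high. The median change over all NONCODE probes was 0.021. For 49 of the 54 and 42 of the 46, the mean of the high fat diet pools lay between those of the other groups. The calls were selected on the end groups, and the position of the middle group was not tested.

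NONMMUT057558 had the smallest p here too, with a rise of 1.99 ± 0.16 (SE, limma adjusted p = 0.00526), and NONMMUT047819 rose by 2.59 ± 0.26 (SE, limma adjusted p = 0.0152), which is 6.02-fold. NONMMUT068801 rose by 1.35 ± 0.14 (SE, limma adjusted p = 0.0152) from 1.39, 1.56 and 1.58 in the controls. NONMMUT061275, which also rose with the diet alone, was at -0.98, -1.21 and -1.14 in the metformin pools, a rise of 1.64 ± 0.19 (SE, limma adjusted p = 0.0169), and its high fat diet and metformin pools overlapped. NONMMUT057595 was above background in the metformin pools alone, at -2.72, -2.49 and -2.75, and was at least 1.38-fold higher than in the controls (limma adjusted p = 0.0193). It met the detection limit through the metformin pools alone, so it was tested because that group was high.

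Among those that fell, NONMMUT074275 was at -0.65, -0.87 and -1.44 in the controls, at -2.40, -2.45 and -2.22 in the high fat diet pools and at -3.30, -2.74 and -3.57 in the metformin pools, which were not well above background. It fell at least 4.10-fold (limma adjusted p = 0.0155), and its 3 groups lay apart in this order. NONMMUT013553 fell by 1.64 ± 0.18 (SE, limma adjusted p = 0.0152) to -2.24, -2.04 and -2.13, levels that overlapped those of the high fat diet pools. NONMMUT018086 was at -2.57, -2.68 and -2.95 in the controls and at -4.37, -4.14 and -4.73 in the metformin pools, of which 1 was above background (limma adjusted p = 0.0152). Its size is not well measured there, at -1.68 in this fit and -0.31 with normexp. NONMMUT033236 was at least 1.19-fold lower. NONMMUT023212 was above background in the controls alone, at -3.20, -3.13 and -3.10, so close to the floor that no fold is given (limma adjusted p = 0.0152 for both). Both met the detection limit through the controls alone.

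**Figure D4:**
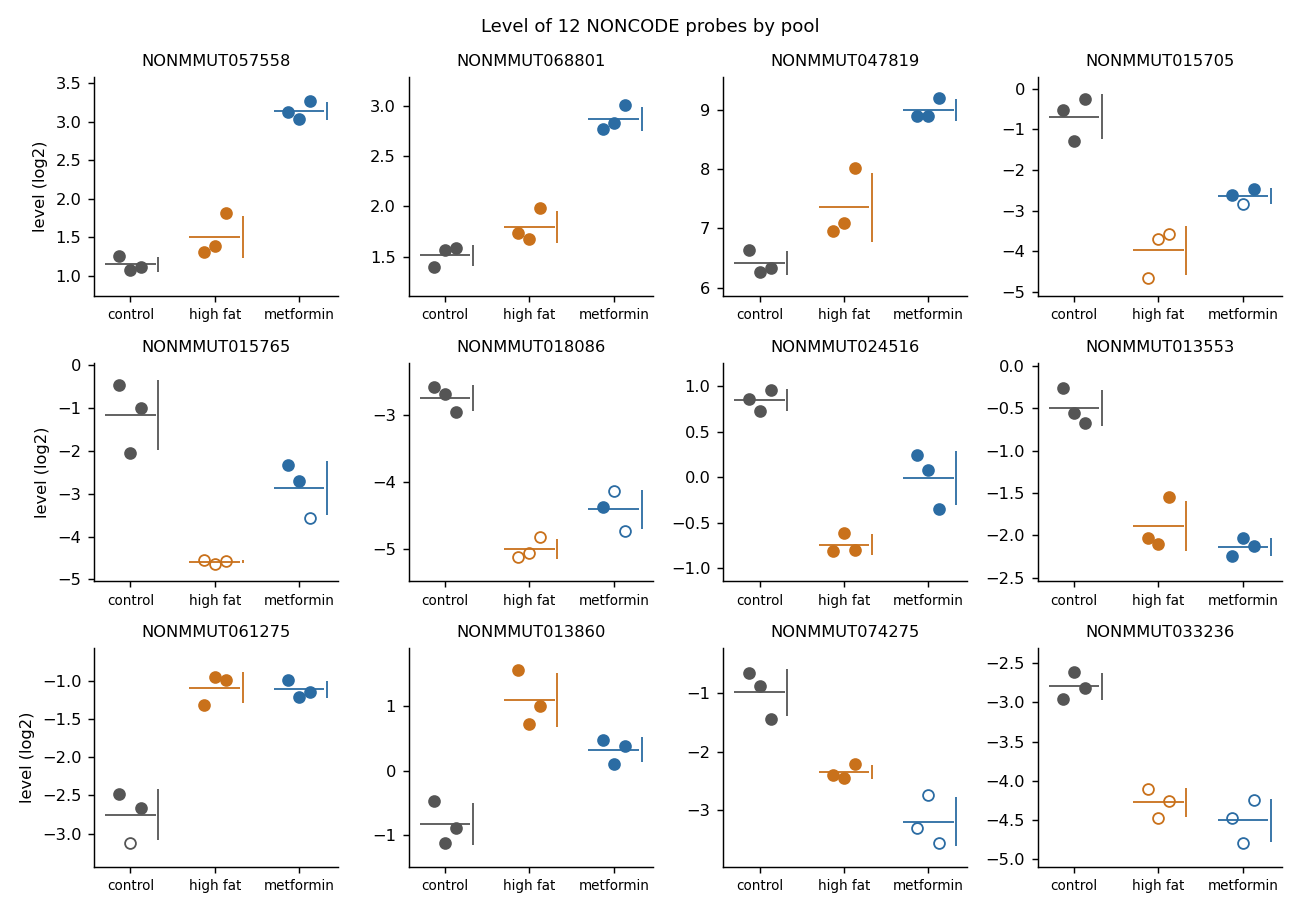
Level (log2 relative to the array's 75th percentile) of 12 named NONCODE transcripts in each of the 9 pools, by group, with the group mean as a horizontal line and its SD (n = 3) above and below the mean as a vertical bar. Open points are pools not well above background. NONMMUT057558, NONMMUT047819 and NONMMUT068801 are highest in the metformin pools, and NONMMUT015705 and NONMMUT015765 are lowest in the high fat diet pools.

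The 9 transcripts called for the diet can be followed here. NONMMUT061275, NONMMUT013553, NONMMUT018086, NONMMUT033236, NONMMUT015705 (-1.96, with 2 of 3 metformin pools above background, limma adjusted p = 0.0426) and NONMMUT058227 (at least 1.5-fold lower, limma adjusted p = 0.0381) differed from the controls in the metformin pools as well. NONMMUT013860 (1.15, limma adjusted p = 0.0632), NONMMUT024516 (-0.86, limma adjusted p = 0.0585) and NONMMUT015765 (-1.70, 2 of 3 metformin pools above background, limma adjusted p = 0.0794) missed the threshold there. None of the 9 passed the test between the metformin and the high fat diet pools, with limma adjusted p of 0.502 or above.

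Detection in all controls and no metformin pool was again more common than the reverse, in both collections. Above background on all controls and no metformin array were 150 NONCODE probes (0.893% of those tested), and the reverse held for 26 (0.155%). For catalogue probes the counts were 204 (0.703%) and 19 (0.0655%). Arrays differed in detection, from 48.1% of NONCODE probes on metformin replicate 2 to 60.3% on control replicate 3. Control replicate 1 also had its excess of high probes. The counts were not corrected for either, so they do not show by themselves that transcripts were lost. NONMMUT074819 (at least 3.28-fold lower, limma adjusted p = 0.0678) and NONMMUT060023 (at least 3.22-fold lower, limma adjusted p = 0.11) missed the threshold. Both were highest in control replicate 1, at -0.08 and 0.05, against -1.61 and below in the other controls. Among the gains, NONMMUT068180 (at least 2.81-fold, limma adjusted p = 0.0472), NONMMUT018916 (at least 2.23-fold, limma adjusted p = 0.0398) and NONMMUT020723 (at least 2.06-fold, limma adjusted p = 0.0209) passed. NONMMUT020723 was at -3.07, -3.21 and -3.41 in the controls, -2.86, -2.93 and -2.65 in the high fat diet pools and -2.18, -2.01 and -1.95 in the metformin pools, so its groups lay apart in this order. In all, 37 NONCODE probes (0.220%) were above background in every control and in no pool on the high fat diet with or without metformin. Another 3 were so in the metformin pools alone and 1 in the high fat diet pools alone. The catalogue counts were 73 (0.252%), 4 and 1.

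The count of 100 depended on the arrays included. It was 463 without control replicate 1, 1 without control replicate 2, 24 without control replicate 3, 201, 52 and 162 when high fat diet replicate 1, 2 or 3 was left out, 28 and 16 when metformin replicate 1 or 2 was, and 0 when metformin replicate 3 was (2443 at an unadjusted limma p under 0.05). With the slide as a fixed block it was also 0 (833 at an unadjusted limma p under 0.05). With normexp, the changes of NONMMUT057558, NONMMUT047819 and NONMMUT068801 were 1.81, 2.53 and 1.27, those of NONMMUT061275 and NONMMUT013553 were 0.79 and -0.89, and NONMMUT018086, NONMMUT033236, NONMMUT023212, NONMMUT057595, NONMMUT068180 and NONMMUT020723 missed the threshold (limma adjusted p between 0.0533 and 0.404). The split between higher and lower probes whose groups did not overlap moved from 53.0% higher to 67.0% with normexp.

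The 3 transcripts most above the other arrays in control replicate 1 were NONMMUT035366, NONMMUT066037 and NONMMUT020496. NONMMUT035366 was at -0.85 there, at -2.42 and -2.62 in the other controls and between -5.46 and -3.82 in all other pools. NONMMUT066037 was at -0.14 there and between -5.12 and -2.82 elsewhere, and NONMMUT020496 at -0.22 there and between -4.88 and -2.11 elsewhere. Of the 144 probes in excess on that array, 2 (1.39%) were called for the diet, where 0.0451% of all probes were. For metformin versus control 12 (8.33%) were called, where 0.546% of all probes were. The 144 were picked by a high control value that enters both tests, so larger shares were built into the choice.

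None of the 10 brightest NONCODE probes was called. They had mean levels from 8.21 to 9.09 and included NONMMUT057771, NONMMUT056508, NONMMUT036216, NONMMUT057031 and NONMMUT063949, and all 10 were above background on every array. The others were NONMMUT053650, NONMMUT073241, NONMMUT029256, NONMMUT058701 and NONMMUT027011. NONMMUT036216 lay between 8.41 and 8.80 on all 9 arrays, and NONMMUT053650 between 8.07 and 9.03. In the 3 comparisons no limma adjusted p of the 10 was below 0.324.

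A few transcripts differed far more between pools of 1 group than between groups. Among probes above background on all 9 arrays, NONMMUT067160 had the largest within-group SD, 1.85, and was at -1.38, 2.57 and -2.81 in the high fat diet pools. NONMMUT017532 was at 2.38, 2.66 and 2.25 in the controls, at 0.58, 2.54 and -1.17 in the high fat diet pools and at 3.21, -0.20 and -1.19 in the metformin pools. Its spots on 1 array differed by an SD of 0.065, taken over the arrays, so this spread lay between pools. NONMMUT049430 was at 1.70, 1.97 and 1.27, then -0.34, 1.53 and -1.28, then 2.15, -1.01 and -1.03 in the same order of pools. The levels of NONMMUT017532 and NONMMUT049430 had a correlation of 0.98 over the 9 arrays, and those of NONMMUT067160 correlated with them at 0.89 and 0.88. In these 3, high fat diet replicate 2 and metformin replicate 1 were the high pools of their groups.

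NONMMUT062779 stood out in 1 pool. It was at 5.78 in metformin replicate 3 and between 1.18 and 1.75 in the other 8 pools. NONMMUT002393 was at -1.03 in metformin replicate 2, against 0.99 to 2.93 elsewhere. Neither these nor the 3 above passed the test in any comparison. At the other end, NONMMUT061216 was at 0.93, 0.94 and 0.93 in the controls, at 1.16, 1.13 and 1.13 in the high fat diet pools and at 1.19, 1.21 and 1.19 in the metformin pools, with a within-group SD of 0.014. NONMMUT048612, NONMMUT029003, NONMMUT063247 and NONMMUT005084 had within-group SDs near 0.03. NONMMUT029003 was at 0.36, 0.33 and 0.40 in the controls and at 0.74, 0.73 and 0.71 in the metformin pools, which lay apart (0.36, limma adjusted p = 0.149).

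NONCODE probes with neighbouring identifier numbers differed between groups more alike than probes far apart in number, although weakly. Over 16791 pairs of NONCODE probes next to each other in the order of their numbers, the changes from control to high fat diet correlated at 0.18, those from high fat diet to metformin at 0.079, and those from control to metformin at 0.15. At 10 places apart these values were 0.0090, 0.0016 and 0.0035, and at 1000 places 0.0026, -0.0029 and 0.0037. The levels themselves correlated at 0.090 for neighbours. These are correlations across pairs that share the same arrays, given as a description. Neighbours by number were a median of 258 rows apart on the array, as were pairs 100 places apart. Columns were not compared, and position on the array was not tested as a cause.

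Pairs whose numbers differed by 1 were the most alike. There were 4601 such pairs, with correlations of 0.27, 0.14 and 0.23 in the same order of comparisons, and 109 of them (2.37%) had profiles over the 9 arrays that correlated above 0.9, against 25 of 4025 pairs (0.621%) whose numbers differed by 5. Detection went together as well. Of all NONCODE probes, 64.3% met the limit when their neighbour did and 50.2% when it did not, whereas at 100 places apart the shares were 58.5% and 58.3%. Nothing is said of positions in the genome from these numbers, since no table of positions was used here.

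**Figure D5:**
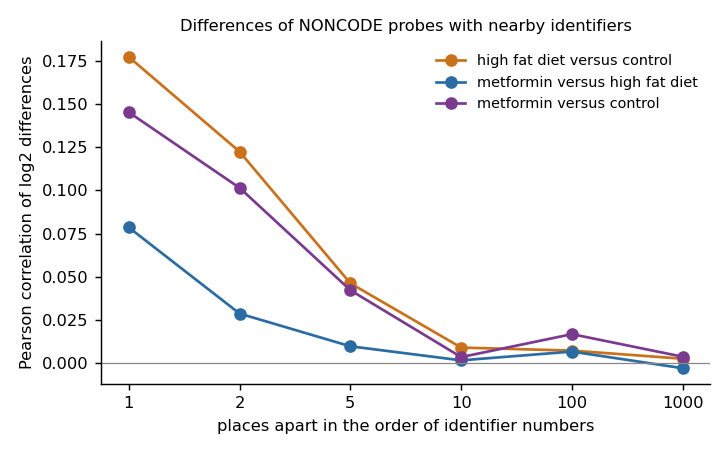
Pearson correlation of log2 changes between NONCODE probes, by the places between them in identifier order (evenly spaced steps), for the 3 comparisons. The correlation is 0.18, 0.079 and 0.15 at 1 place and at or below 0.017 from 10 places on.

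Some called transcripts were close in number, and they were picked out after their values had been seen. NONMMUT061275, NONMMUT061277 and NONMMUT061286 all rose from control to metformin. NONMMUT061277 was at -4.12, -3.25 and -3.26 in the controls, at -1.93, -1.12 and -1.55 in the high fat diet pools and at -0.96, -1.53 and -0.54 in the metformin pools, and rose by 2.53 ± 0.32 (SE, limma adjusted p = 0.0209), with 1 of 3 controls above background. NONMMUT061286, a bright probe, was at 2.84, 2.97 and 2.56 in the controls and at 3.53, 3.95 and 3.99 in the metformin pools, and rose by 1.03 ± 0.18 (SE, limma adjusted p = 0.0472).

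NONMMUT056965 and NONMMUT056967 rose together as well. They were at 1.65, 1.87 and 2.15, and at 2.06, 2.07 and 2.32, in the controls, and at 3.02, 2.65 and 3.12, and at 3.14, 3.01 and 3.23, in the metformin pools. The rises were 1.04 and 0.98 (limma adjusted p = 0.0472 and 0.0306), and their levels correlated at 0.98 over the 9 arrays. NONMMUT031760 and NONMMUT031767 moved in opposite directions, with a rise of 0.98 for the first (limma adjusted p = 0.0366) from control to metformin. NONMMUT031767 was above background in all controls, at -2.59, -2.26 and -3.05, and in no metformin pool, so its fall was at least 1.34-fold (limma adjusted p = 0.0271). Their levels, part of them not well above background, correlated at -0.90.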

How the data were processed

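Liver RNA of 9 pools was hybridised to single-colour Agilent arrays. Per the file headers, the authors used Agilent Feature Extraction 11.5.1.1 on the scans, and the submitters' processing notes name version 10.7. The processed signal the authors deposited is a linear intensity, from which the extraction software had subtracted background per the file headers. The authors' table for all 9 arrays, also deposited, holds log2 values. After 1 constant per array was taken off, 100% of probes were within 0.01 of the scanner values, so scale, centring and direction are settled. The medians of its columns were -2.39 to -2.16, and it served as an alternative.

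Unflagged spots of a probe were averaged on the log2 scale and the array's 75th percentile was subtracted. At least a 0.5 share of a probe's spots had to be well above background for the probe to count so on an array, and the tests took probes that did so on at least 3 of 9 arrays and had all 9 values. That left 62036 probes: 16792 NONCODE, 29011 catalogue and 16233 others. The fit used limma 3.58.1 under R 4.3.3 (lmFit, eBayes, 1 mean per group, 6 residual and 3.75 prior degrees of freedom), with Benjamini-Hochberg adjustment over all probes tested. P-values measure the spread between pools. The fits were tested on simulated data with 200 changed probes. Single values per array were compared by exact two-sided permutation. Arrays give no counts, and their number limits the precision.

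Where every array of a group was not well above background, the bound used a floor for each array, from -3.49 to -2.68. It sets the bright group's mean against, for each dim array, whichever was higher of the probe's own signal and that floor. The floor is not the lowest level that counted as above background. In metformin replicate 3, NONMMUT011877 counted so at -3.61, below the floor of -3.08 there. Normexp (offset 50) used the median signal. Replicate numbers did not pair the samples, since correlations of same-numbered deviations ran from -0.094 to 0.128. The members, lists and rules were chosen with earlier results of these data known. Named were the called probes (the 5 with the smallest p in each direction where over 12 were called, and the 3 smallest where under 3 were), the 3 largest bounds in each direction, the 10 brightest, the 5 most and 5 least variable, and the 3 most in excess on control replicate 1. Of 50 cell type markers, 0 had a named probe.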

Additional observations from a re-analysis of the deposited data

How the results depend on the processing

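Counts are given for all probes and then for NONCODE probes. For high fat diet versus control (28 and 9) they were 64 and 21 with normexp, 12 and 2 with no filter, 2 and 0 with the slide as a fixed block, 202 and 61 with it as a random block, and 60 and 16 with array weights. For metformin versus high fat diet (4 and 1) they were 7 and 2 with normexp, 2 and 0 with no filter, 0 and 0 with the slide as a fixed block, 7 and 1 with array weights, and 0 and 0 with only the 2 groups compared. For metformin versus control (339 and 100) they were 594 and 148 with normexp, 638 and 169 among probes above background on all 9 arrays, 96 and 24 with no filter, 0 and 0 with the slide as a fixed block, 8243 and 2364 with it as a random block, 6761 and 1596 with array weights, and 602 and 173 with only the 2 groups compared. Beside the zeros, limma gave 870, 782 and 833 NONCODE probes at an unadjusted p under 0.05 with the fixed slide block in the 3 comparisons, and 1193 (no filter) and 1364 (2 groups) for metformin versus high fat diet. The random slide block had a consensus correlation of -0.168, and the array weight of control replicate 1 was 0.238. With the replicate block the counts were 0 and 0, 0 and 0, and 79 and 19, with 2362 and 1142 NONCODE probes at an unadjusted limma p under 0.05 in the first and second; the samples share only a number. Leaving out 1 array gave 0 to 296 and 0 to 94 calls for high fat diet versus control, 0 to 4 and 0 to 2 for metformin versus high fat diet, and 2 to 2711 and 0 to 463 for metformin versus control.

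For NONCODE and catalogue probes, the share above background was 76.6% and 85.8% with the software's weaker test of a signal above background, 49.9% and 67.5% where all spots had to pass, and 53.6% to 55.1% and 71.0% to 72.0% without 1 array. The median level was -0.84 and 0.23 with normexp, -0.59 and 0.79 for probes above background on all 9 arrays, -2.90 and -0.95 with no filter, and -1.24 to -1.23 and 0.27 to 0.30 without 1 array. The median SD between pools was 0.144 and 0.161 with normexp, 0.217 and 0.212 on all 9 arrays, and 0.225 to 0.253 and 0.173 to 0.238 without 1 array. The median range was 0.434 and 0.386. The SD between spots was 0.101 for NONCODE with normexp, and 0.121 and 0.0886 on all 9 arrays. The causes were not tested. Over 44 changes of named transcripts and 804 alternatives, 626 stayed on their side of the threshold, 161 lost and 17 gained the call, and 0 reversed. All 161 losses fell on the 23 changes that passed in the main fit. The others counted as staying wherever they remained uncalled. With normexp all 44 were smaller, 35 by over 1.5 times, among them 17 of the 23 that passed. Where a group was dim on all arrays, only a bound is given in the text, apart from the normexp change of NONMMUT015705 with the diet.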
